A study of Homo sapiens with 20 samples.

Results

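The 10 genes described here mark a simple columnar epithelium and were followed through 10 peak lists of chromatin accessibility from 2 human colon adenocarcinoma lines, LOVO and RKO. The genes are the keratins KRT8, KRT18, KRT19 and KRT20, the adhesion genes EPCAM and CDH1, the claudins CLDN3, CLDN4 and CLDN7, and VIL1. They were chosen by name, 10 of 20033 protein-coding genes that the RefSeq table places on the autosomes, X and Y, and all 10 matched a symbol. For each gene, every interval that overlapped the gene body or 20 kb on either side was recorded, and this stretch is called its window. The windows of KRT8 and KRT18 overlap, so the 10 genes have 9 separate windows.

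Keratins are the intermediate filaments of epithelial cells. KRT8 and KRT18 are the type II and type I partners of the filament of simple epithelia, KRT19 is a further type I keratin of such cells, and KRT20 is a keratin of differentiated intestinal cells. CDH1 encodes E-cadherin, the calcium-dependent adhesion protein of adherens junctions, EPCAM is a surface adhesion protein of epithelial cells, and claudins are the membrane strands of tight junctions that set what passes between cells. Villin, the product of VIL1, bundles actin in the microvilli of the intestinal brush border.

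The study sequenced fragments cut from accessible DNA by a transposase (ATAC-seq) in 20 samples. Both lines were studied with a control hairpin RNA (shControl) or with one that targets METTL3 (shMETTL3), whose product is the catalytic part of the m6A writer of RNA. Either kind of cell was left untreated or received olaparib, a drug that blocks PARP enzymes in DNA repair. Untreated shControl has 4 samples per line, 2 of which are labelled batch2, and the remaining 3 groups (shMETTL3 untreated, shControl plus olaparib, shMETTL3 plus olaparib) have 2 samples per line each. Every group, the controls included, therefore carries a hairpin, and the labels give neither the dose and time of olaparib nor the METTL3 that remained.

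What was deposited is 5 peak lists per line, and a list stands for a whole group. Untreated shControl and untreated shMETTL3 have a list of merged intervals without values, and untreated shControl, shControl with olaparib and shMETTL3 with olaparib have a list of scored intervals whose peak names all belong to replicate 1. Untreated shControl thus has a merged and a scored list in each line, the only repeat of a group. This pair differs in form and may differ in the samples, and so in the batch, behind it. There are no replicate lists, so no difference below has a test. The lists held from 6916 intervals (RKO shMETTL3, merged) to 51462 (LOVO shMETTL3 with olaparib), and the read depth behind them is unknown, so a missing interval does not show closed chromatin. Because the libraries are from bulk cells, a site open in fewer cells and a site less open in each cell cannot be told apart.

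The labelled cell type was set against markers of intestinal epithelium by asking whether an interval lay within 1 kb of either annotated end of the gene. CDX2, an intestinal transcription factor, had one in 5 of 5 LOVO and 4 of 5 RKO lists. HNF4A, another such factor, had one in all 5 LOVO lists and in no RKO list, CDX1 in 1 LOVO list alone, and the intestinal cadherin CDH17 in none. The list has 7 markers, of which EPCAM, VIL1 and KRT20 are among the 10 genes themselves. EPCAM had one in 5 LOVO and 4 RKO lists, VIL1 in 4 LOVO lists alone and KRT20 in 1 LOVO list alone. In RKO the intestinal markers therefore rested on CDX2 and EPCAM, and EPCAM is no separate support. Of all genes, 35.8 to 58.4% had such an interval in a LOVO list and 25.3 to 55.4% in an RKO list. Of 7 mesenchymal markers, ZEB1 had such an interval in 4 LOVO and 5 RKO lists, VIM in 4 LOVO lists and FN1 in 3 LOVO lists, and the other 4 had none. The 3 endothelial markers had none. Of 4 leukocyte markers SPI1 had one in 4 lists of each line and CD3E in 2 LOVO lists, and of 3 neuronal markers SYP had one in 4 LOVO and 2 RKO lists and TUBB3 in 4 RKO lists.

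The RefSeq promoter table (GRCh38.p14) held entries for 5 of the 10 genes. The 250 bases before the start are shown for 4 of them, to set promoters of different cover side by side, and CLDN7, which has 2 entries, is described without its letters. Capitals mark matches to 6 motifs searched on both strands. These are the E-box of SNAIL and ZEB repressors (CAGGTG, read on the other strand as CACCTG), the Grainyhead-like motif (AACNGGTT), the SP/KLF box (GGGCGG, on the other strand CCGCCC), the AP-1 site (TGANTCA) and the TATA box (TATAAA). The CDX motif was searched in the form TTTATGG and in the form TTTATTG.
KRT8 (12:52926470-52926719, minus strand): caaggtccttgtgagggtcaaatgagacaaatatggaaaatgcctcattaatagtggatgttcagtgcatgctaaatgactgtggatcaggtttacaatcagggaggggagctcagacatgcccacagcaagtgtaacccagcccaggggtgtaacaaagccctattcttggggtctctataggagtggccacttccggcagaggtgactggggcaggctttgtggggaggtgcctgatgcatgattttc
KRT20 (17:40885243-40885492, minus strand): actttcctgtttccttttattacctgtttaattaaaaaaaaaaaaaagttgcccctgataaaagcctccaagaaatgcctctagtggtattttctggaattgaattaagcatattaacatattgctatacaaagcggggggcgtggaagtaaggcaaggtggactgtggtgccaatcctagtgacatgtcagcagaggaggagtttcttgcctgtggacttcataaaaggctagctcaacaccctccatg
CLDN3 (7:73770271-73770520, minus strand): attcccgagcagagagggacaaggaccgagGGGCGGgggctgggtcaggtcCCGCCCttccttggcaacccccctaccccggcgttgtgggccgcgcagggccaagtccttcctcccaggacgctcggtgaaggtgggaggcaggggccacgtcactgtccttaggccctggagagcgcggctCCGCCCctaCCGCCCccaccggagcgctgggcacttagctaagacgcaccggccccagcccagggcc
CLDN4 (7:73830746-73830995, plus strand): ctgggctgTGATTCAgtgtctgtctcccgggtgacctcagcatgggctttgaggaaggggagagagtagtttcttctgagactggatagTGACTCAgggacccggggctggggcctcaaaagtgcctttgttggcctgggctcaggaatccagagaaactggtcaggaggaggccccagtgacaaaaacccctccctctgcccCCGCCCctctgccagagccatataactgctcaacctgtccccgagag

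The CLDN3 promoter held 4 SP/KLF matches, at 220, 199, 67 and 58 bases before the start, and was 71.6% G and C, against a median of 58% over the promoters of the table. CLDN4 held 2 AP-1 matches, TGATTCA at 242 and TGACTCA at 161 bases before the start, and 1 SP/KLF match at 47. CLDN7 had none at its outer start, and at the start inside the gene 4 E-box matches, at 174, 135, 20 and 9 bases before it, and 1 SP/KLF match at 96. These were the only E-box matches among the 6 entries. No match overlapped another. In the KRT8 and KRT20 promoters none of the 6 motifs was found, which says only that these letters are not in these windows. Of 35116 promoters in the table, 42.6% held the SP/KLF motif, 17.5% the E-box, 10.7% the TATA box, 6.57% the AP-1, 5.81% the CDX and 1.49% the Grainyhead-like motif, so the SP/KLF matches are common ones.

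The lists covered these 4 promoters in 4 different ways. The promoter entry of KRT8 lay wholly inside an interval in 3 LOVO lists (250 of 250 bases in merged shControl, scored shControl and shControl with olaparib). It was covered over 205 bases in LOVO shMETTL3 with olaparib, and was uncovered in LOVO shMETTL3 and in all 5 RKO lists. This entry lies inside the annotated gene, and any other KRT8 start has no entry, so its cover was not read. Elsewhere in KRT8, at 52904475-52905475, all 5 LOVO lists held an interval, of 335 bp in shMETTL3, and no RKO list did. The CLDN4 promoter was covered over 250, 183 and 250 bases in the 3 scored LOVO lists and not at all in the other 7 lists. CLDN3 ran the other way round: its promoter was covered over 250, 193, 136 and 242 bases in 4 RKO lists, all but shMETTL3, and over 152 bases (scored shControl) and 124 bases (shMETTL3 with olaparib) in LOVO. The KRT20 promoter met no interval in any of the 10 lists, nor did that of the inner CLDN7 start, and the outer one was covered over 155 bases in LOVO shMETTL3 with olaparib alone. Over all promoters of the table, from 13.9% (RKO shMETTL3) to 37.9% (LOVO shMETTL3 with olaparib) met an interval in a list.

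Intervals in the 9 windows were more numerous in LOVO than in RKO. In LOVO there were 39 in merged shControl, 29 in shMETTL3, 63 in scored shControl, 57 in shControl with olaparib and 80 in shMETTL3 with olaparib. The same lists of RKO held 24, 7, 20, 22 and 27. Every RKO list thus had fewer than the LOVO list with the fewest, and the ranges of the lines did not overlap. These ranges mix merged and scored lists, and the counts were not adjusted for the length of the lists. Each RKO list was also shorter than the matching LOVO list. The RKO lists held 6916 to 35455 intervals and the LOVO lists 16417 to 51462, ranges that did overlap. Ratios for matching lists, with those of all intervals, are given below.

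**Figure D1:**
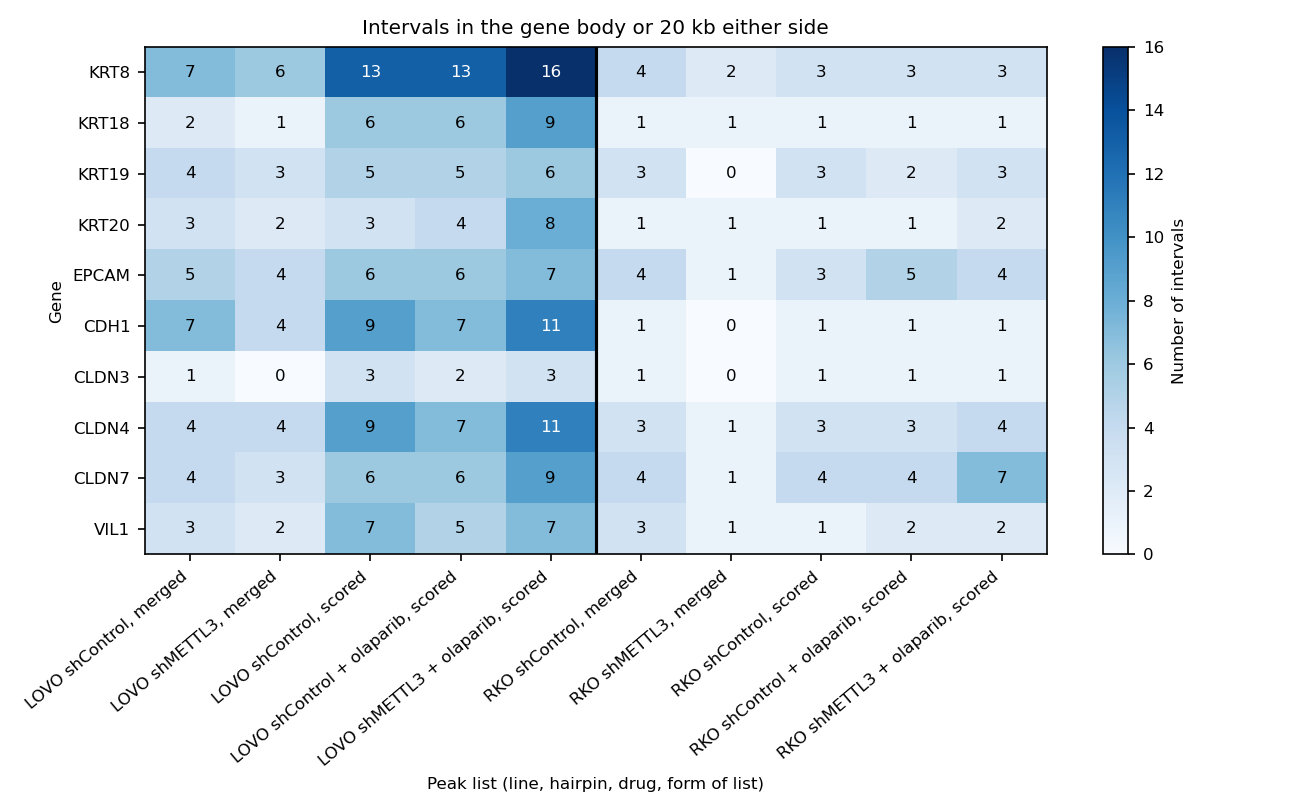
Number of intervals in the gene body or 20 kb on either side of each gene (rows) in each of the 10 peak lists (columns, LOVO left of the line, RKO right), with the count printed in each cell and shaded from 0 to 16. KRT8 has 16 intervals in LOVO shMETTL3 with olaparib, whereas CDH1 has 4 to 11 in the LOVO lists and 0 or 1 in the RKO lists.

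KRT8 (12:52897191-52949860) and KRT18 (12:52948855-52952906) are neighbours on chromosome 12 whose annotated spans overlap, and together their window held 17 distinct regions. Of the 17, 13 appeared in LOVO alone. Just outside the left-hand end of KRT8, from 52895369 to 52896985 and so 206 bp or more from the gene, all 5 LOVO lists held an interval of 1444 to 1617 bp, and no RKO list held one. This side is downstream of the gene, since KRT8 is read from right to left. Another LOVO site lay inside KRT8 at 52912822-52913752 and spanned 931, 617, 849, 894 and 812 bp in the order merged shControl, shMETTL3, scored shControl, shControl with olaparib and shMETTL3 with olaparib. Its scores of 17.9, 16.8 and 18.8 in the 3 scored lists were the highest in the KRT8 window. This site too was missing from all 5 RKO lists.

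The widest interval of any of the 10 genes, 2737 bp in LOVO merged shControl, spanned the KRT8 promoter entry shown above (52925000-52927736). In LOVO shMETTL3 the site was reduced to 569 bp that no longer reached this entry. The scored LOVO lists covered 1776 bp of the site in shControl, 2007 bp with olaparib and 1643 bp in shMETTL3 with olaparib. In RKO it was a single interval of 199 bp in merged shControl. RKO had instead an interval at 52903437-52903861 in 4 lists, of 419, 315, 392 and 355 bp, where LOVO had 89 bp in shMETTL3 with olaparib alone.

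At KRT18 the lines differed in which part of the gene was covered. An interval at its left-hand end, where KRT18 starts (52948840-52949180), was in the 3 scored LOVO lists only, at 341, 309 and 312 bp with the low scores of 3.77, 3.24 and 3.06. A further interval inside the gene (52949667-52950182) was in all 5 RKO lists, at 480, 149, 337, 429 and 410 bp in the order given above, and its scores there were 10.7, 14.3 and 13.6. The same site in LOVO was in the scored lists only, with scores of 4.92, 3.64 and 6.03. At no other region found in both lines at an end of the 10 genes were the scores higher in all 3 RKO lists than in the matching LOVO lists. Scores of different lists were not put on 1 scale, so this order is a description.

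KRT19 (17:41523617-41528308) had no interval inside the gene in any list, as had 23.3% of all genes. Its widest site in LOVO ended 848 bp to the left of the gene (41521210-41522769), which is downstream of it, since KRT19 is read from right to left. There the LOVO lists held 1560, 1105, 942, 941 and 937 bp with scores of 14.4, 13.1 and 12, and the RKO lists 239, 0, 205, 212 and 205 bp with scores of 7.42, 9.85 and 8.98. Other sites of the window scored higher in 3 of the 6 scored lists. At the right-hand end, 48 bp from the gene, only the 3 scored LOVO lists held intervals, of 176, 185 and 262 bp with scores of 3.73, 2.88 and 4.82. A site 1373 bp to the right was in all 5 LOVO lists (449 to 940 bp) and in 3 RKO lists (197 to 343 bp).

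KRT20 (17:40875889-40885242) had the barest ends of the 10 genes. The only interval within 1 kb of either end was 160 bp in LOVO shMETTL3 with olaparib, scored 5.47. Further into the gene, at 40882997-40883434, LOVO held 438 bp in merged shControl, 168 bp with olaparib and 399 bp in shMETTL3 with olaparib, and nothing in the other 2 lists. RKO had nothing within the gene. The well-supported sites lay to the right: one at 9839 bp in all 5 LOVO lists (475 to 754 bp) and in none of RKO, and one at 18019 bp in all 10 lists. The latter measured 737, 663, 679, 537 and 561 bp in LOVO and 534, 150, 427, 566 and 632 bp in RKO, where its score was 19 in shMETTL3 with olaparib.

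**Figure D2:**
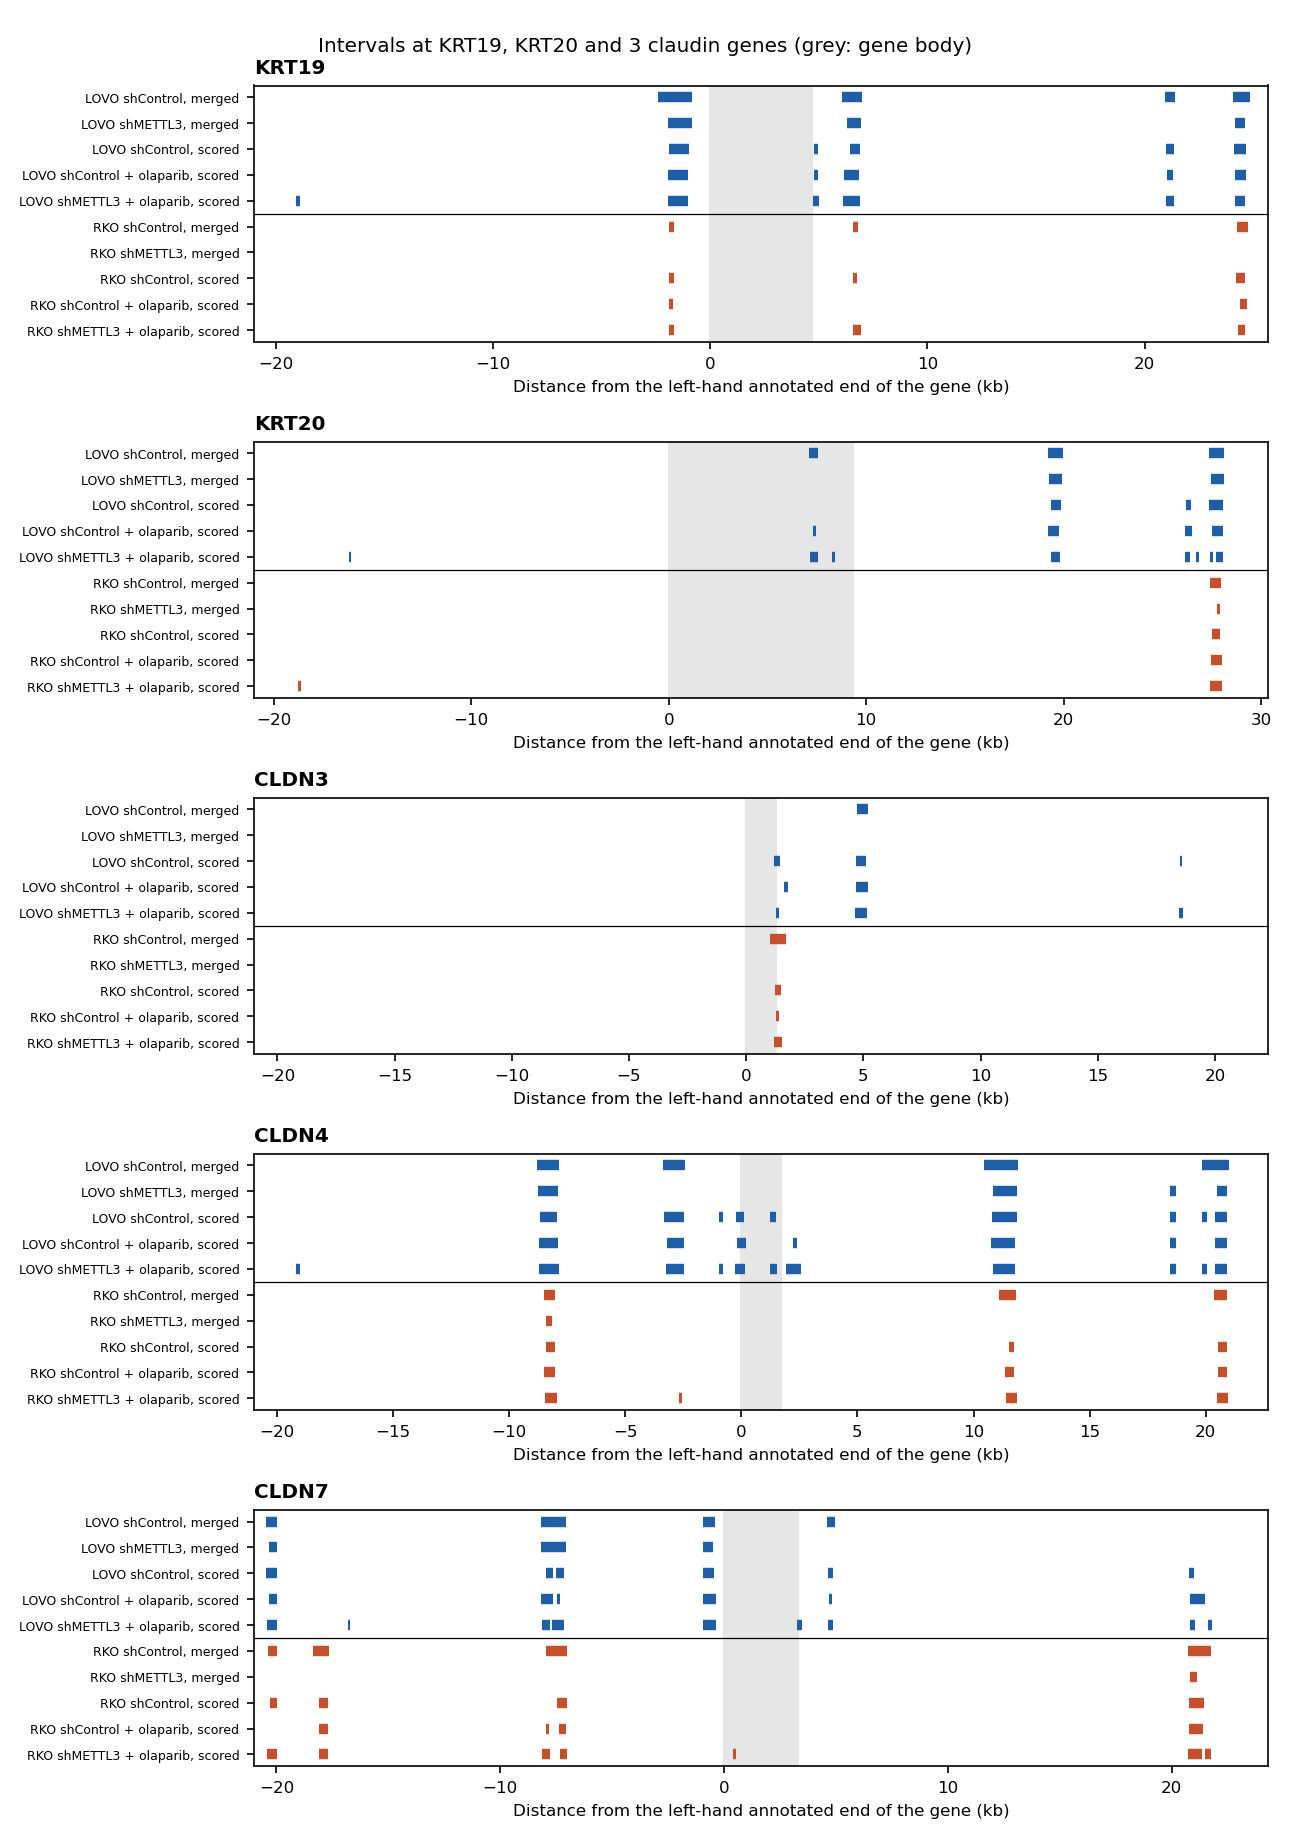
Intervals (bars, to scale) in the windows of KRT19, KRT20, CLDN3, CLDN4 and CLDN7, 1 row per list, with LOVO in blue above the line and RKO in red below it; the x axis is distance in kb from the left-hand annotated end and grey marks the gene body. The gene bodies of KRT19 and, in RKO, KRT20 and CLDN4 hold no interval, whereas the site 7856 bp to the left of CLDN4 is in all 10 lists.

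EPCAM (2:47369311-47387020) was the gene whose sites the lines shared most: all 5 of its regions occurred in both. The one 7925 bp to the left of the gene (47360431-47361386) was in all 10 lists, at 944, 344, 332, 320 and 550 bp in LOVO and 368, 266, 281, 306 and 314 bp in RKO. It also carried the highest scores of the EPCAM window, 20.6, 16.4 and 22.2 in LOVO and 12.6, 17 and 22.1 in RKO. At the start of the gene (47368938-47370172) LOVO held 1235, 314, 698, 626 and 698 bp and RKO 464, 0, 353, 429 and 187 bp. All 5 LOVO lists had an interval across the start itself, whereas the RKO intervals began 357, 458, 419 and 614 bp inside the gene. With 314 bp left in LOVO and nothing in RKO, the untreated shMETTL3 lists were the lowest of their lines at this start. A site 14128 bp to the left was in all 5 LOVO lists (791 to 1084 bp) and in 1 RKO list, shControl with olaparib, at 288 bp. The 2 regions to the right, at 1171 bp and on the next gene, were each in 3 or 4 RKO and 4 or 5 LOVO lists.

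CDH1 (16:68737292-68835537) was the gene whose sites the lines shared least. Of its 11 regions, 10 were in LOVO alone, and the other lay on a neighbouring gene, TANGO6, to the right. That one measured 838, 0, 581, 712 and 607 bp in RKO and 426 to 827 bp in LOVO. In the LOVO lists 3 regions recurred 5 times, one to the left of the gene within CDH3 (68721800-68722609, 444 to 810 bp) and a pair inside CDH1 at 68752565-68752894 (186 to 291 bp) and 68756090-68756621 (321 to 522 bp). The start itself, 68737139-68737444, was covered in 2 lists only, by 306 bp in scored shControl (score 10.3) and by 245 bp in shMETTL3 with olaparib (score 8.41). A site inside CDH3, 1140 bp from an end of that gene (68732020-68732631) and absent from merged shMETTL3, scored 8.97 in shControl, 12.4 with olaparib and 18.3 in shMETTL3 with olaparib. No RKO list had an interval anywhere in the gene body or at the start.

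CLDN3 (7:73768997-73770270) had few intervals in either line. One region lay at its right-hand end, where the gene starts (73770032-73770773), and measured 648, 0, 252, 136 and 320 bp in RKO and 0, 0, 222, 180 and 124 bp in LOVO. With olaparib in LOVO shControl it lay wholly beyond the promoter shown above. The scores were 7.42, 8.51 and 7.81 in RKO and 6.66, 6.68 and 8.63 in LOVO. A site 3386 bp to the right was in 4 LOVO lists, at 444 to 516 bp, and in no RKO list. LOVO shMETTL3 and RKO shMETTL3 without drug had no interval in the whole CLDN3 window.

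CLDN4 (7:73830996-73832690) had its most stable site 7856 bp to the left (73822206-73823140), in all 10 lists. It spanned 935, 882, 765, 824 and 854 bp in LOVO and 469, 257, 400, 468 and 488 bp in RKO, with scores of 16, 14.4 and 15.8 and of 14.8, 18 and 18. At the start of the gene (73830725-73831175) only the 3 scored LOVO lists held an interval, of 376, 363 and 443 bp with scores of 5.1, 4.14 and 4.87. A site 2433 bp to the left was 928 bp wide in LOVO merged shControl, missing in LOVO shMETTL3, and 846, 747 and 801 bp in the scored lists. RKO had 140 bp of it in shMETTL3 with olaparib.

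CLDN7 (17:7259903-7263213) sits among closely spaced genes, and most of its window's intervals lay at their ends. A site 362 bp to the left of the gene (7258942-7259541), which is also inside ELP5, was in all 5 LOVO lists at 536, 440, 461, 599 and 589 bp with scores of 10.4, 10.2 and 11.3, and in no RKO list. That side is downstream of CLDN7, which is read from right to left. At the right-hand end, where CLDN7 starts, 1 list held an interval: LOVO shMETTL3 with olaparib, 216 bp, score 3.9. The only RKO interval in the gene was 137 bp in shMETTL3 with olaparib, score 3.85. By contrast a site at the end of SLC2A4 (7280615-7281708) was in all 5 RKO lists, from 344 to 1058 bp, and in 3 of LOVO.

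VIL1 (2:218419123-218453295) had its start covered in LOVO alone. The interval there (218418894-218419396) spanned 503 bp in merged shControl, 375 bp in scored shControl, 448 bp with olaparib and 212 bp in shMETTL3 with olaparib, and was absent from untreated shMETTL3. Its scores were 9.91, 13.3 and 8.14. A site inside the gene (218445452-218445916) was in all 5 LOVO lists at 465, 227, 287, 277 and 268 bp, and 3 more sites inside the gene appeared in 1 or 2 scored LOVO lists. RKO had no interval in VIL1 or at its ends. The region in all 10 lists lay at an end of the neighbour CTDSP1 (808 to 1507 bp in LOVO, 193 to 955 bp in RKO).

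**Figure D3:**
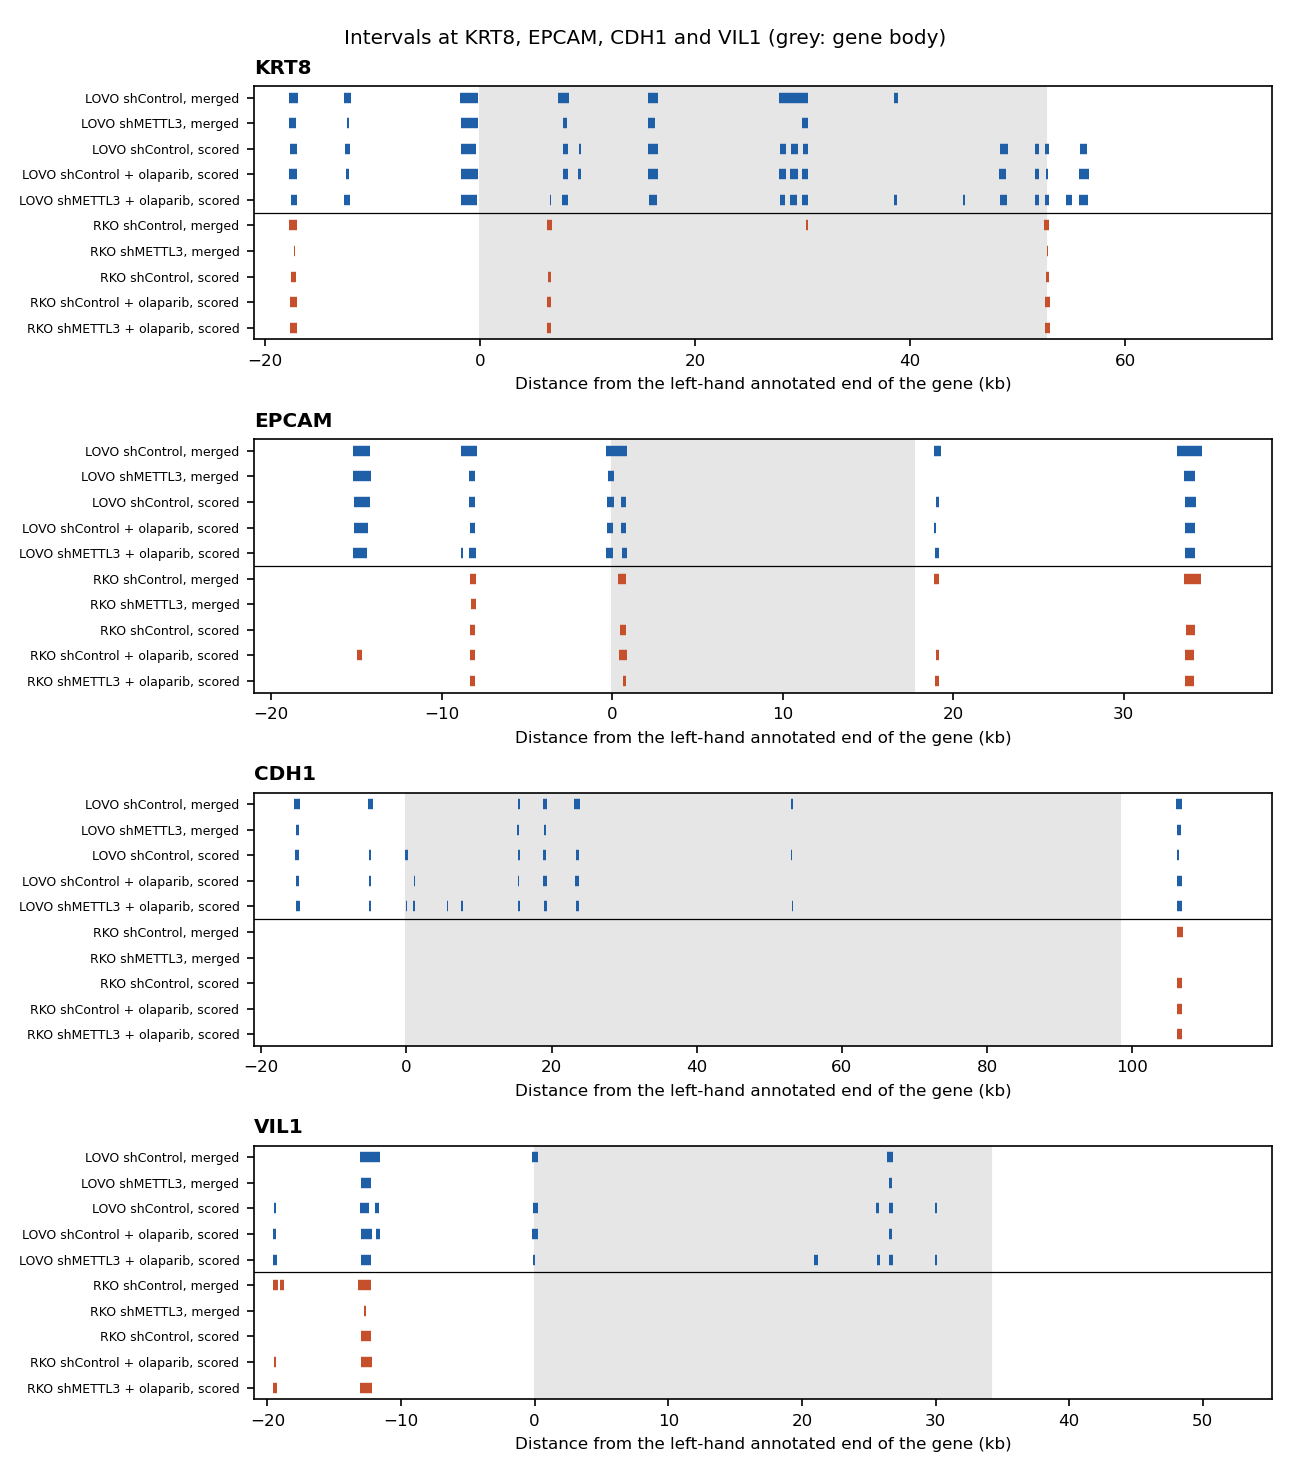
Intervals (bars, to scale) in the windows of KRT8, EPCAM, CDH1 and VIL1, 1 row per list, with LOVO in blue above the line and RKO in red below it; the x axis is distance in kb from the left-hand annotated end and grey marks the gene body. The bodies of CDH1 and VIL1 hold intervals in all 5 LOVO lists and in no RKO list, and the EPCAM sites recur in both lines.

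Merging overlapping intervals over the 10 lists gave 77 regions in the 9 windows. Of these, 49 (63.6%) were in LOVO lists only, 4 (5.19%) in RKO lists only and 24 (31.2%) in both, against 44.7%, 23.8% and 31.5% of the 72261 regions of the whole series. There were 10 regions (13%, against 8.07% of all) in all 5 LOVO lists and no RKO list, and none in all 5 RKO lists and no LOVO list (0.599% of all). In all 10 lists there were 5 regions, 6.49% against 6% of all. At the ends of the 10 genes lay 20 regions, 15 of them in LOVO only, 1 in RKO only, 4 in both lines and none in all 10 lists. Of the 14369 regions at an end of any protein-coding gene, 14.9% were in LOVO only, 16.2% in RKO only, 68.9% in both lines and 23% in all 10 lists. Over whole windows the 10 genes thus held a smaller share of RKO-only regions than the series, and at their ends a larger share of LOVO-only regions (75%).

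By gene, 2 of 10 (CDH1 and VIL1) had an interval in the body in all 5 LOVO lists and no RKO list, a state held by 1.66% of all genes. At a gene end this held for KRT19 alone (1 of 10, against 1.31% of all genes). It rested on the limit of 1 kb, since RKO and some LOVO lists had the left-hand site just beyond it and the scored LOVO lists had the weak right-hand interval. None of the 10 had the reverse state, an interval in all 5 RKO lists and no LOVO list, in its window (0.309% of all genes), body (0.3%) or ends (0.314%). An interval in the window in all 10 lists was found for 7 of 10 genes, against 38.2% of all genes, and not for KRT19, CDH1 and CLDN3. For some of the 7 this rested on neighbours. In all 5 RKO lists the CLDN7 intervals lay within 1 kb of an end of another gene, and the KRT18 interval lay at an end of KRT8. In RKO shMETTL3 the VIL1 interval was at CTDSP1. An interval within 1 kb of an end in all 10 lists was found for KRT8 alone, against 20.1% of all genes, and it was at the left-hand end in LOVO and at the right-hand end, which lies within KRT18, in RKO.

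Set list against list, the windows in RKO held 0.615 times the LOVO number in merged shControl, where all intervals gave 0.836. The ratio was 0.241 in shMETTL3 (all intervals 0.421), 0.317 in scored shControl (0.512), 0.386 in shControl with olaparib (0.803) and 0.338 in shMETTL3 with olaparib (0.689). When the longer list of each pair was cut to the length of the shorter, keeping its highest scores or, in merged lists, its widest intervals, the ratios lay between 0.467 and 0.649. RKO therefore held fewer at these genes than LOVO in all 5 pairs of lists, with or without that cut. The share of LOVO intervals with no RKO partner was 56.4% in merged shControl (55.9% of all LOVO intervals), 82.8% in shMETTL3 (73.2%), 69.8% in scored shControl (65.1%), 66.7% with olaparib (55.7%) and 68.8% in shMETTL3 with olaparib (60%). In the other direction, 29.2%, 28.6%, 10%, 18.2% and 11.1% of the RKO intervals had no LOVO partner, against 45.4%, 35%, 31.8%, 44.8% and 41.9% of all RKO intervals. With 1 list per group, a difference between lines and a difference between libraries cannot be told apart.

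Untreated shMETTL3 was compared with untreated shControl on the merged lists. In LOVO the windows went from 39 to 29 intervals, 0.744 times, where all intervals went to 0.49 times. Of the 39, 12 had no partner (30.8%, 95% exact binomial interval 17 to 47.6%, counting error only), against 52.5% of all intervals. Of the 29 intervals with shMETTL3, 2 were new (6.9%, against 2.73% of all). The covered length fell from 33723 to 17582 bp and the mean width from 865 to 606 bp. The intervals without a partner had a median width of 456 bp and those with one of 935 bp. At the level of genes, 1 of 10 windows became empty, that of CLDN3, against 21.5% of all genes. Of 5 genes with an interval in the body, KRT20 had none left (30% of all genes), and of 5 with one at an end, VIL1 had none left (31.2%).

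In RKO the same comparison left 7 of 24 intervals, 0.292 times, against 0.247 times over all. Of the 24, 17 had no partner (70.8%, 48.9 to 87.4%), against 76.9% of all, none was new (4.25% of all), and the covered length fell from 13470 to 1518 bp. The 7 that were left had a mean width of 217 bp. They were the site left of KRT8, the one inside KRT18, and those of KRT20 at 18019 bp, EPCAM at 7925 bp, CLDN4 at 7856 bp, CLDN7 at the SLC2A4 end and VIL1 at the CTDSP1 end. In all, 3 of 10 windows were empty, those of KRT19, CDH1 and CLDN3, against 45.2% of all genes. The bodies of KRT8, EPCAM and CLDN3 lost their intervals, 3 of 4 (63.8% of all genes), and so did the ends of KRT18, EPCAM and CLDN3, 3 of 4 (54.1%). At KRT18 this was a matter of place: the interval was still there, shortened to 149 bp, and began 1039 bp inside the gene.

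Counted by intervals and by windows, these losses with shMETTL3 were smaller in share than those of all intervals and all genes in both lines. The binomial bounds given for the intervals cover counting error only and treat intervals of the same window as independent. With 1 list per group they do not measure the spread between libraries, so the difference from all intervals was not tested in either line. With the control list cut to the number of intervals in the shMETTL3 list, keeping the widest, LOVO held 26 intervals in the windows with shControl and 29 with shMETTL3 (1.12 times), and RKO 6 and 7 (1.17 times). The direction of the difference therefore turned with that cut. Against the scored shControl list in place of the merged one, the LOVO ratio was 0.46.

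Olaparib was compared with no drug in shControl cells on the scored lists. In LOVO the windows held 63 intervals without and 57 with the drug, 0.905 times (all intervals 0.777), and 9 of 63 had no partner (14.3%, 6.75 to 25.4%), against 28.2% of all. These 9 had a median score of 6.25, the 54 with a partner 8.97. In RKO the number went from 20 to 22, 1.1 times (1.22 over all), and 1 of 20 had no partner (5%, 0.127 to 24.9%), against 11.5%. That one lay 1373 bp to the right of KRT19. In each line 4 intervals were new, 7.02% in LOVO (9.19% of all) and 18.2% in RKO (29.2%).

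No window was emptied by olaparib in either line, where 5.66% of all genes in LOVO and 2.02% in RKO were. The ends of 1 of 9 genes in LOVO lost their interval (7.47% of all genes), namely those of CDH1, and of 0 of 4 in RKO (2.36%). At CDH1 the 306 bp interval on the start was absent with the drug, and 160 bp were called about 1 kb further into the gene. The body of CLDN3 lost its interval in both lines, 1 of 7 genes in LOVO (9.31%) and 1 of 4 in RKO (3.42%). In RKO this was a matter of place: the interval at the start was shortened and lay just outside the gene (73770272-73770407). In LOVO the interval was absent, with another called outside the gene (73770594-73770773). KRT20 gained a body interval in LOVO, 1 of 3 genes (5.68%). Both ratios crossed 1 under other settings: with lists of equal number they were 1.19 in LOVO and 0.95 in RKO.

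Under olaparib, shMETTL3 was set against shControl. In LOVO the windows held 57 intervals with shControl and 80 with shMETTL3, 1.4 times (1.6 over all). Of the 57, 3 had no partner (5.26%, 1.1 to 14.6%; 6.65% of all), and 25 of 80 were new (31.2%, against 40.5% of all). The new ones were narrow and of low score, with medians of 186 bp and 5.47, where the list's median score was 9.16. In RKO the number went from 22 to 27, 1.23 times (1.37 over all), with 1 lost (4.55%, 0.115 to 22.8%; 10.5% of all) and 5 new (18.5%; 33.1% of all).

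In LOVO the ends of KRT20 and CDH1, the 2 genes without an interval under shControl with olaparib, both had one under shMETTL3 with olaparib (12.9% of all such genes). All 10 genes then had an interval at an end. CLDN7 gained a body interval in LOVO, 1 of 3 (23.6% of all). In RKO, CLDN7 gained an end interval, 1 of 6 genes (8.38%), and CLDN3 and CLDN7 gained body intervals, 2 of 7 (17.2%). At CLDN3 this was a matter of place. Its interval was already there under shControl with olaparib, at 73770272-73770407, just outside the gene end at 73770270. With lists of equal number the LOVO ratio was 0.719 and the RKO ratio 1, so the higher numbers with shMETTL3 were not seen with that cut.

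The drug in shMETTL3 cells can be read only across the 2 forms of list, from merged without to scored with olaparib. In LOVO 29 intervals became 80 (2.76 times, 3.13 over all) and in RKO 7 became 27 (3.86 times, 5.13 over all). None of the 29 or of the 7 lacked a partner, for which exact upper limits are 11.9% and 41%, against 0.792% and 2.81% of all intervals. New intervals made up 61.2% of the LOVO list's (67% of all) and 74.1% of the RKO list's (81.2% of all). At the ends, 6 of 6 genes in LOVO (KRT18, KRT20, CDH1, CLDN3, CLDN4 and VIL1; 35.4% of all genes) and 4 of 9 in RKO (KRT18, EPCAM, CLDN3 and CLDN7; 40.4%) gained an interval. In the body, 4 of 6 genes in LOVO (KRT18, KRT20, CLDN4 and CLDN7; 45.6% of all genes) and 4 of 9 in RKO (KRT8, EPCAM, CLDN3 and CLDN7; 54.7%) gained one. The empty windows of CLDN3 in LOVO (59.7% of all) and of KRT19, CDH1 and CLDN3 in RKO (68.3% of all) held intervals again.

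Part of this is also seen between the 2 untreated shControl lists, which differ in form. From the merged to the scored list the LOVO windows went from 39 to 63 intervals, 1.62 times (1.24 over all), and 4 of 5 genes without an end interval, KRT18, CDH1, CLDN3 and CLDN4, had one in the scored list (12.2% of all genes). The body of KRT20, 1 of 5, lost its interval (4.65% of all genes). In RKO the number went from 24 to 20, 0.833 times (0.758), 4 of 24 had no partner (16.7%, against 36.9% of all), and none of 6 genes gained an end interval (1.5%). The intervals at the starts of KRT18 and CLDN4 were in scored LOVO lists only, so form of list and condition cannot be told apart for them. Which untreated shControl samples, batch2 or not, stand behind each of the 2 lists is not given. Form and batch therefore cannot be told apart in this pair either.

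Counting genes with an interval within 1 kb of an end, LOVO had 5, 4, 9, 8 and 10 of the 10 in the order given above and RKO 4, 1, 4, 4 and 5. Over all genes the shares were 51.5, 35.8, 55.8, 53.2 and 58.4% in LOVO and 54.9, 25.3, 47.6, 52.3 and 55.4% in RKO. In the scored LOVO lists the 10 genes were thus above the share of all genes, and in the merged LOVO lists near it. In all 5 RKO lists, merged and scored, they were below it.

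In LOVO the intervals at the ends of these genes were, by their median, weak for their kind. Their median score stood at percentile 25.2 of the list in shControl (15 intervals), 20.1 with olaparib (12) and 14.8 in shMETTL3 with olaparib (19). All gene-end intervals of those lists had medians at 58.1, 58 and 58.5. Elsewhere in the windows, at no gene end, the medians of the members' intervals were at 46.6, 46.2 and 41.1. In RKO, with 3, 3 and 4 intervals, the medians at member ends were at 50.3, 57.7 and 29.3 and those of all gene-end intervals at 47, 46.7 and 48.4. Among the end intervals in LOVO, those of KRT18 scored 2.34 to 6.35, those at the right-hand end of KRT19 2.88 to 4.82 and those of CLDN4 2.53 to 5.1. The start of VIL1 scored 8.14 to 13.3 and the site left of CLDN7 10.2 to 11.3. In LOVO shControl the left-hand site of KRT19 scored 14.4, the start of EPCAM up to 12.4 and that of CDH1 10.3. KRT18 and CLDN4 had 3 end intervals each in that list, so the median leans on them and is not a trait of every gene.

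**Figure D4:**
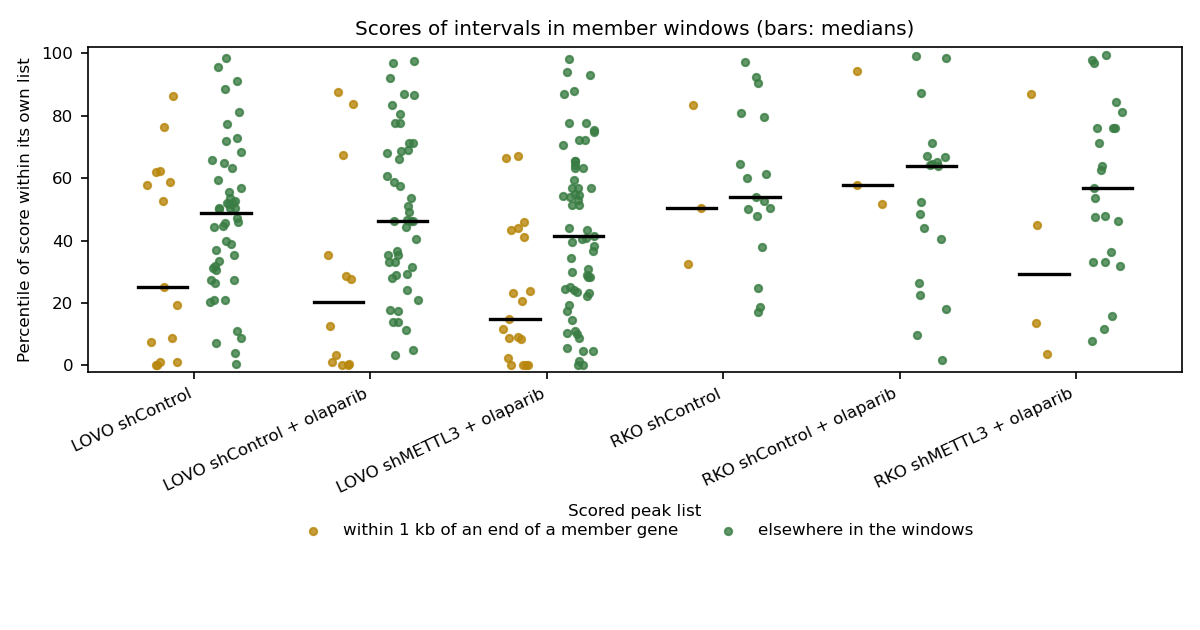
Percentile of the score of each interval within its own scored list (y axis) for the 6 scored lists (x axis), with intervals within 1 kb of an end of one of the 10 genes in brown, other intervals of their windows in green, and bars at the medians. In LOVO the bars for gene ends stand at 25.2, 20.1 and 14.8, below those for the rest of the windows.

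A further 77 genes of the same structures were read the same way at their ends, in lists of 13 keratins, 17 tight junction genes, 16 adherens junction and desmosome genes, 15 brush border genes and 16 epithelial regulators. Keratins were the barest list, with 8 of 13 at 0 in all 10 lists, against 35.4% of all genes. More LOVO than RKO lists held an end interval for 3 keratins, 8 tight junction genes, 9 adherens and desmosome genes, 9 brush border genes and 9 regulators, and the reverse was true of 0, 3, 1, 2 and 2. Over all genes the shares were 24.3% with more LOVO and 12.3% with more RKO lists. Present in all 5 LOVO lists and no RKO list were the ends of 4 of the 77 genes, 1 in each list but the keratins, against 1.31% of all genes. They were the claudin CLDN1, JUP (the plakoglobin of desmosomes and adherens junctions), BAIAP2L2 of the brush border and the epithelial transcription factor ELF3. No gene of these lists had the reverse state.

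With untreated shMETTL3, end intervals were lost by 4 of 12 tight junction genes in LOVO and 7 of 11 in RKO, 5 of 12 and 9 of 12 adherens and desmosome genes, 3 of 10 and 6 of 9 brush border genes, 3 of 6 and 3 of 4 regulators, and 1 of 2 and 1 of 1 keratins. Among the adherens and desmosome genes, CTNNB1, the beta-catenin that binds E-cadherin, AFDN, NECTIN2 and the desmosomal PKP2 lost theirs in both lines. The shares of all genes lost at an end were 31.2% and 54.1%, as given above. An interval was gained by EZR in LOVO alone. Gains in both lines were KRT13 with shMETTL3 under olaparib and SPINT1, a protease inhibitor, with olaparib in shControl. Read over the 10 lists, CLDN12, PARD6B and CTNND1 shared the state of KRT8 in 10 of 10 lists, CLDN1, JUP and BAIAP2L2 that of KRT19, KRT16 and MYO1A that of CDH1, KRT14, MARVELD3 and ANKS4B that of VIL1, TJP1 that of KRT18 and CLDN3, and CRB3 and ESRP1 that of CLDN4. These matches are over 10 lists with 2 states each and are descriptions only.

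**Figure D5:**
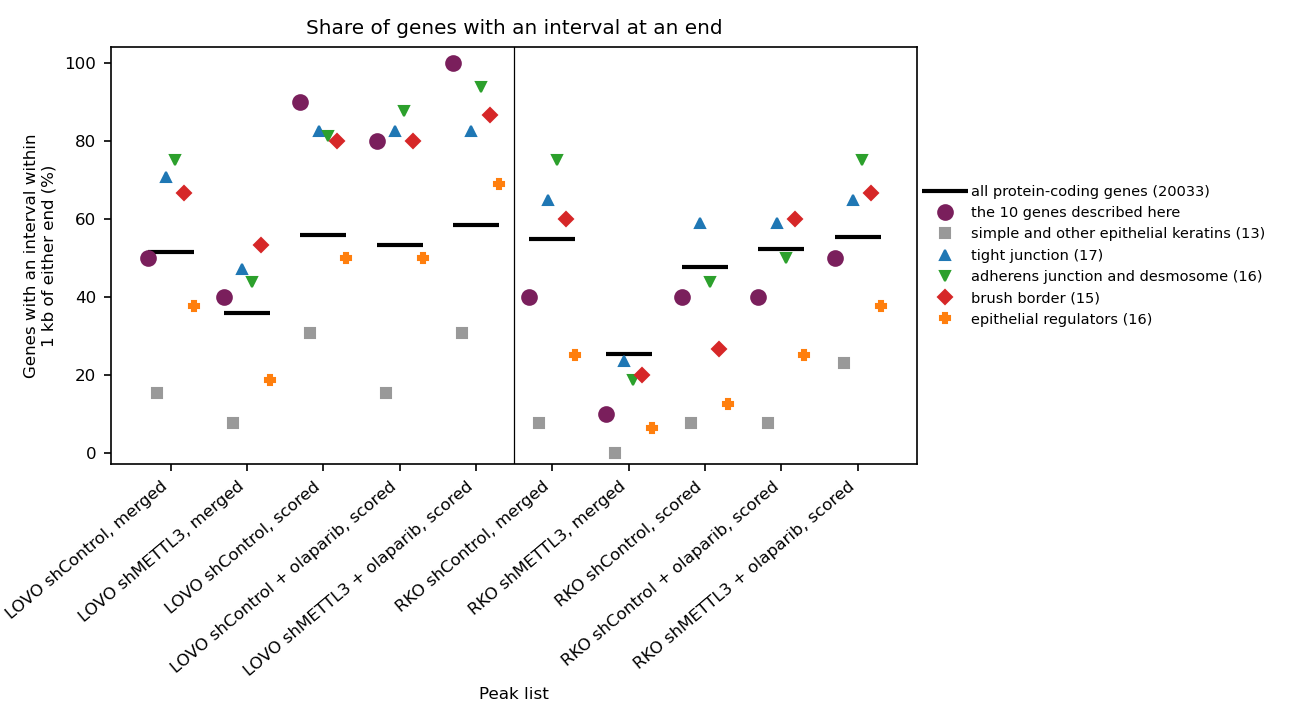
Share of genes (y axis, %) with an interval within 1 kb of either end in each peak list (x axis), for all 20033 protein-coding genes (black bars), the 10 genes described here (purple circles) and 5 lists of related genes (other symbols, with their sizes in the legend). The 10 genes reach 10 of 10 in LOVO shMETTL3 with olaparib and stand at 1 of 10 in RKO shMETTL3.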

How the data were processed

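ATAC-seq libraries were made with a VAHTS Hyperactive kit, per the labels' protocols. The submitters' processing notes name MACS2 2.2.7.1, DiffBind 3.0.15, Bowtie2 2.4.2, Trim Galore 0.6.6 and the build hg38, with no roles. Filters, and how samples were combined, are not given in the sources used here. From this processing the authors deposited 10 lists of interval positions, 6 of them with a peak score whose MACS2 column is not stated. In the scored lists the deposited peak names all carry replicate 1. Scores were used only within a list, to describe and rank its intervals.

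The genes and the lists of related genes were chosen with earlier results of these data known. Intervals were assigned by at least 1 bp of overlap with the gene body or 20 kb either side (RefSeq table, GRCh38.p14, the assembly of hg38). The table has no strand and 5 genes have no promoter entry, so both annotated ends, 1 kb either side, took the place of the gene starts that had been planned; starts are called so from general knowledge of strand or the promoter table. The table does not separate exons, introns and UTRs. Named were all 10 genes with the intervals at their ends, the widest, the highest scored and those in all lists of a line, and up to 4 other genes per list that differed between lines in all lists or changed alike in both; other regions of the windows and the remaining similar genes were named after their values were seen. A result that this rule names is not reported here.

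Lists of the same form were compared (merged with merged, scored with scored), and olaparib in shMETTL3 across forms. An interval was kept if any interval of the other list overlapped it, otherwise lost, and new if it had no partner in the reference list. Shares have 95% exact (Clopper-Pearson) intervals, which cover counting error only. No test was made, because each group has 1 list of a form. Background shares were computed over all genes, intervals or merged regions. Alternatives were the gene body only, 50 kb flanks, other end windows, a width of at least 300 bp, a score at or above the list's median, 50% overlap, the other shControl list and lists of equal number. The code used pandas 2.3.3, numpy 2.4.6 and matplotlib 3.10.9. Its count of lost intervals was tested on the merged LOVO shControl list, with intervals removed at random and the rest slightly shifted. No other columns held sample values.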

Additional observations from a re-analysis of the deposited data

Results flagged for a closer look

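With olaparib in shControl cells, the number of intervals in the windows of the 10 genes was 0.905 times that without drug in LOVO (63 to 57) and 1.1 times in RKO (20 to 22). The lines thus moved in opposite directions, as did all intervals (0.777 and 1.22 times). With 1 scored list per group the difference between the lines was not tested, and with lists of equal number the values were 1.19 and 0.95, which turned both directions.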

How the results depend on the processing

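No paired analysis was possible because the lists are for groups, not samples, so the replicate numbers that groups share cannot be used. Depth is unknown and limits every absence. Among alternatives, 46 of 76 values for the number of genes whose window changed state, 32 of 56 ratios of interval number, 26 of 43 ratios of covered bases, 10 of 13 shares lost and 25 of 30 counts of genes with an end interval did not move. The ratio with lists of equal number was chosen after seeing the data; the cause of the changes below was not tested.

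For shMETTL3 against shControl without drug, the genes that lost their window's intervals went from 1 to 0 in LOVO with 50 kb flanks and with lists of equal number, and from 3 to 1 (50 kb) or 9 (at least 300 bp) in RKO. The ratio of interval number went in LOVO from 0.744 to 0.46 against the other control list and to 1.12 with equal number, and in RKO from 0.292 to 0.05 (at least 300 bp) and 1.17 (equal number). With 50% of an interval to be covered, 51.3% were lost in LOVO and 91.7% in RKO.

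For olaparib in shControl, the genes that changed went from 0 to 2 in LOVO (gene body) and from 0 to 1 in RKO (gene body, and scores at or above the median). The LOVO ratio of 0.905 became 1.05 (at least 300 bp), 1.46 (other control list) and 1.19 (equal number), and the RKO ratio of 1.1 became 0.75 (gene body), 0.917 (other control list) and 0.95 (equal number). The ratio of covered bases turned in LOVO to 0.901 (gene body), 0.966 (50 kb) and 0.826 (other control list), and in RKO to 0.994 (gene body) and 0.651 (other control list).

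For shMETTL3 against shControl under olaparib, the genes that changed went from 0 to 1 in LOVO (gene body, and median score) and from 0 to 2 (gene body, and median score) or 1 (at least 300 bp) in RKO, and the LOVO ratio from 1.4 to 0.719 with equal number. For olaparib in shMETTL3 they went from 1 to 4 (gene body), 0 (50 kb) and 2 (equal number) in LOVO and from 3 to 1 (50 kb) and 9 (at least 300 bp) in RKO. The LOVO ratio of 2.76 became 4.57 (gene body), 1.72 (at least 300 bp) and 0.414 (equal number), and the RKO ratio of 3.86 became 17 (at least 300 bp) and 0.857 (equal number).

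Between RKO and LOVO, the genes whose state differed went with the gene body only from 0 to 5 in merged shControl, 2 to 5 in shMETTL3, 0 to 3 in scored shControl, 0 to 4 with olaparib and 0 to 5 in shMETTL3 with olaparib. In shMETTL3 they were 1 with 50 kb and 8 with at least 300 bp. In scored shControl they were 1 with at least 300 bp and with equal number, and 2 at the median score. With olaparib they were 1 with at least 300 bp and at the median score, and in shMETTL3 with olaparib 2 at the median score. The ratio of RKO to LOVO stayed below 1 throughout. In shMETTL3 it was 0.143 (gene body), 0.04 (at least 300 bp) and 0.467 (equal number), and 96.6% of the LOVO intervals lacked an RKO partner at 50% cover. It was 0.174 and 0.645 in scored shControl (gene body, equal number), 0.158 with olaparib (gene body), and 0.156 and 0.628 in shMETTL3 with olaparib (gene body, equal number).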
